A study of Macaca mulatta with 12 samples.

Results

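Serotonin receptors were followed through every probe set of the array whose only gene symbol was HTR1A, HTR1B, HTR1D, HTR1E, HTR2A, HTR2C, HTR3A, HTR4, HTR6 or HTR7. That rule found 17 probe sets of 9 genes, of the 8226 genes with a probe set of their own and of 12625 probe sets in all. HTR1A had no probe set under the rule and is not analysed here. HTR2A and HTR4 had 3 probe sets each, HTR1B, HTR2C, HTR3A and HTR7 had 2 each, and HTR1D, HTR1E and HTR6 had 1 each. Probe sets of 1 gene read the same transcript pool at different places and were never counted as replicates.

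The RNA came from the dorsal raphe nucleus, a midbrain cluster rich in serotonin neurons that project to the forebrain, of 12 female rhesus macaques. Each monkey had its own array, and 3 monkeys made up each of 4 groups: placebo, estrogen alone, progesterone alone, and estrogen with progesterone, called both hormones below. All treatments were given from Silastic capsules under the skin for 1 month. The placebo monkeys are labelled OVX, the usual short form of ovariectomized, the labels of the hormone groups name the hormone only, and no age or steroid level is given. The progesterone arrays carry the source names P1 to P3, from which the group was taken, although their titles repeat the codes EP1 to EP3 of the combined group. A human Affymetrix array was hybridized with macaque RNA, so a reading moves with how well probe and macaque transcript match as well as with transcript amount. Levels are therefore compared between groups for 1 probe set and never between probe sets.

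Serotonin receptors are sorted by how they signal. HTR1 receptors couple to inhibitory Gi/o proteins, lower cyclic AMP and open potassium channels, and some of them sit on serotonin neurons as autoreceptors that restrain firing and release. HTR2 receptors couple to Gq and phospholipase C, HTR3A forms a cation channel opened directly by serotonin, and HTR4, HTR6 and HTR7 couple to Gs and raise cyclic AMP. In the raphe, receptors of all these classes can be carried by serotonin neurons, by neighbouring GABA and glutamate neurons, or by incoming fibres, whose transcripts lie elsewhere.

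The array medians lay between 74.2 and 87.1 on the linear intensity scale. Estrogen array 1 and both-hormones array 1 stood apart by a 28S ribosomal RNA signal of 841 and 1354, against at most 179 on the other 10 arrays, and by a GAPDH 3′ to 5′ ratio of 2.45 and 2.05, against at most 1.46. Receptor changes against placebo that moved by more than 1 SE without 1 or both of them are given both ways. Changes of all other genes named below are given only with these arrays, and their dependence on them was not tested. Markers of serotonin neurons were read in the placebo group. The serotonin transporter SLC6A4 read 435 ± 39.9, the transcription factor FEV 151 ± 34.4, and the decarboxylase DDC 152 ± 21.8 (SD, n = 3). The vesicle transporter SLC18A2 read 117 ± 27.1 and the monoamine oxidase MAOB 208 ± 61.2. TPH1, a serotonin-synthesizing enzyme that in brain is largely replaced by TPH2, read 0.82 ± 0.31, and TPH2 is not analysed here.

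With any hormone treatment, no serotonin receptor probe set differed from placebo past the threshold of an adjusted p of 0.05. The clearest separation was HTR2C, the Gq-coupled receptor whose RNA is edited, which was lower on all 3 progesterone arrays than on any other array. HTR6 had its lowest mean with progesterone but overlapped placebo there, and its highest readings came from the arrays of high ribosomal signal. Of the 17 probe sets, 11 from 8 genes were bright enough to be tested. With limma and Benjamini-Hochberg adjustment over 7535 tested probe sets, 0 of 11 were called for estrogen, for progesterone and for both hormones against placebo. The same call was made for 0%, 0.0398% and 0.0133% of all tested probe sets. At an unadjusted limma p under 0.05 the members numbered 0, 1 and 0, against 3.08%, 8.28% and 3.38% of all tested probe sets. In bulk tissue, fewer cells of a type and less RNA per cell cannot be told apart.

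The log2 changes of the 11 tested probe sets ran from −0.70 to 0.45 with estrogen, with 5 higher and 6 lower. With progesterone they ran from −0.62 to 0.25, with 4 higher and 7 lower, and with both hormones from −0.77 to 0.25, with 5 higher and 6 lower. The medians were −0.03, −0.11 and −0.02, beside medians of all tested probe sets of −0.00475, 0.0022 and −0.0032. These 3 comparisons share the placebo arrays. The 11 had to pass a filter on brightness taken over all 12 arrays, so they do not stand for all 17.

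**Figure D1:**
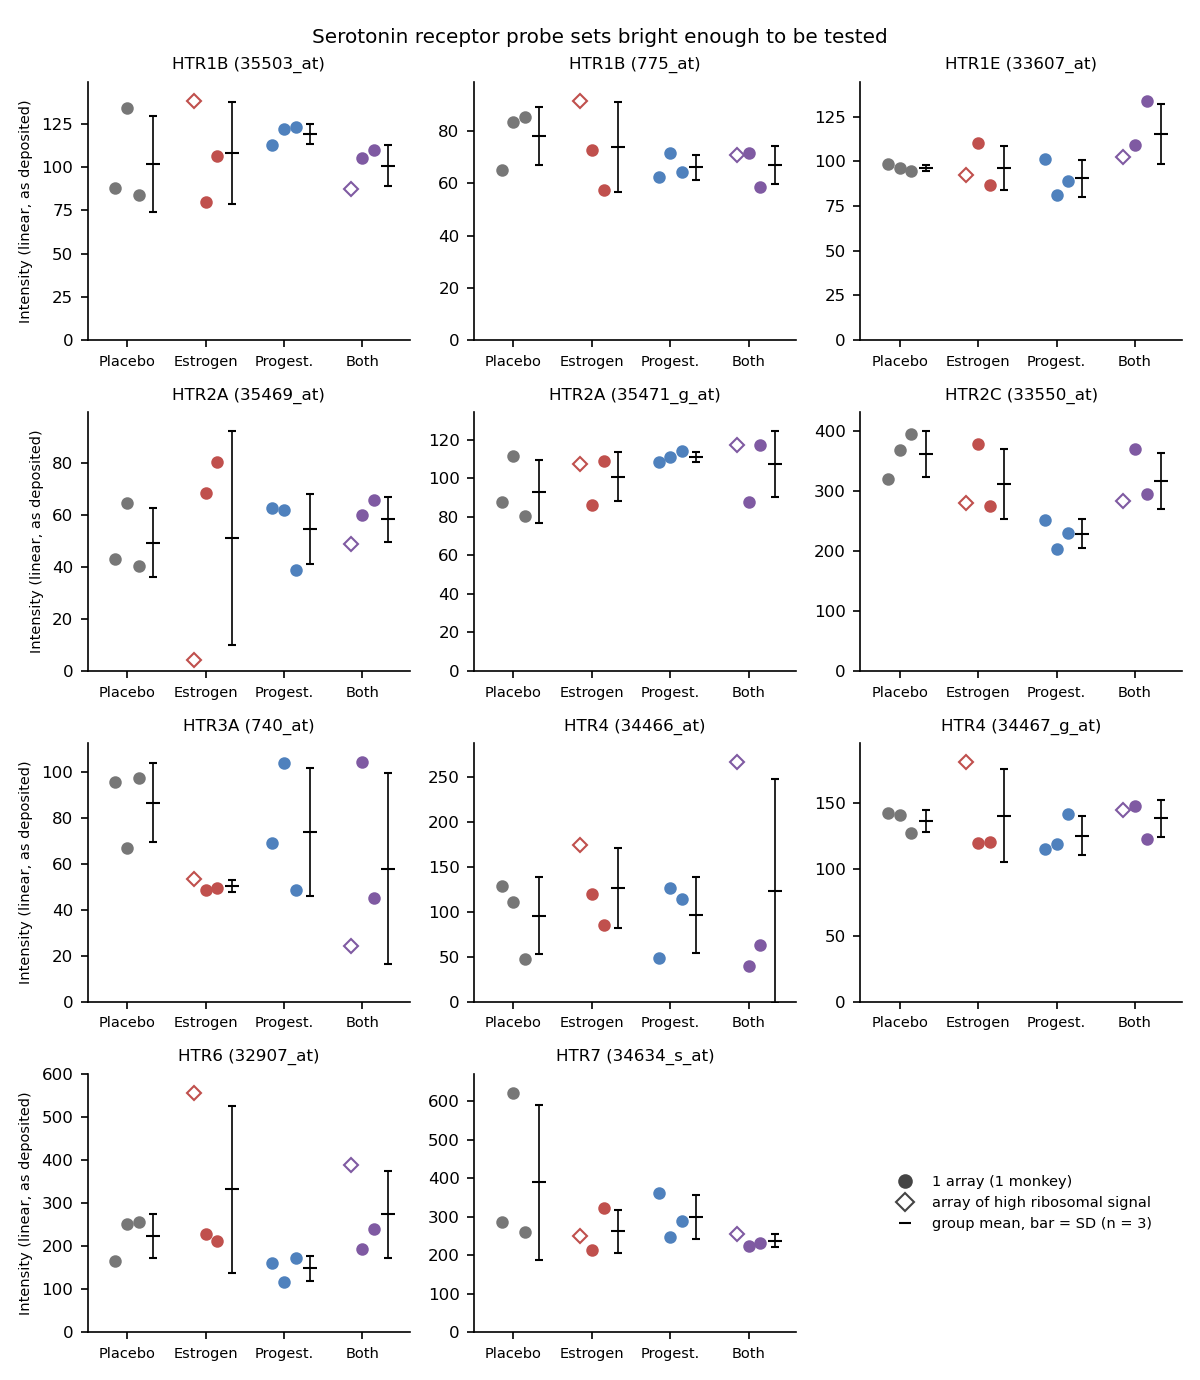
Deposited intensity (linear scale) of the 11 serotonin receptor probe sets bright enough to be tested, by group (Progest. is progesterone, Both is estrogen with progesterone). Each point is 1 monkey, open diamonds are the arrays of high ribosomal signal, and bars are the mean and SD of 3 arrays, drawn to 0 where the SD is larger than the mean. For HTR2C the progesterone points lie at 204 to 253, under every other point, and for HTR6 the open diamonds lie at 557 and 389, above every other point.

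The Gi/o-coupled HTR1 class held 3 genes, and none separated clearly by treatment. HTR1B, the terminal autoreceptor of serotonin fibres, was read by 2 bright probe sets. Probe set 35503_at read 87.8, 134 and 83.8 with placebo, 138, 79.5 and 106 with estrogen, 113, 122 and 123 with progesterone, and 87.3, 105 and 109.9 with both hormones. The progesterone arrays lay close together and above all 3 arrays of both hormones, but inside the placebo range. Their change against placebo was 0.24 ± 0.22 on the log2 scale (SE, limma adjusted p = 0.833). Estrogen gave 0.06 ± 0.22 and both hormones −0.04 ± 0.22.

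HTR1B probe set 775_at read 65.2, 83.5 and 85.5 with placebo and 91.6, 72.7 and 57.4 with estrogen. It read 62.3, 71.6 and 64.5 with progesterone, and 70.9, 71.4 and 58.6 with both hormones. All 4 groups overlapped, with means ordered from placebo (78.0) through estrogen (73.9) and both hormones (67.0) to progesterone (66.1), and neighbours in that order differed by less than their SDs. The changes were −0.10, −0.21 and −0.24 with estrogen, progesterone and both hormones, each with an SE of 0.16. With progesterone the 2 HTR1B probe sets thus read in opposite directions, neither past the threshold (limma adjusted p = 0.833 and 0.803). Over the 12 arrays their log2 values had a Pearson r of 0.04 (permutation p = 0.911) and a Spearman rho of 0.08 (permutation p = 0.816). Without the 2 arrays farthest from the median, r was −0.01.

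HTR1E, a Gi/o-coupled receptor with no counterpart in mouse or rat, varied little within placebo. It read 98.2, 96.0 and 94.6 with placebo, 92.1, 110.2 and 86.7 with estrogen, 101, 80.9 and 88.7 with progesterone, and 102, 109 and 134 with both hormones. All 3 arrays of both hormones lay above all 3 placebo arrays, and the other groups overlapped placebo. The change with both hormones was 0.19 ± 0.17 (limma adjusted p = 0.9996), with a 95% interval from −0.18 to 0.57. Estrogen and progesterone gave −0.03 and −0.08. The order of means was both hormones (115), estrogen (96.3), placebo (96.3) and progesterone (90.4), and among these neighbours only the step from both hormones to estrogen was larger than both SDs. On quantile-normalized values both hormones and placebo overlapped for HTR1E.

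HTR1D, the other terminal autoreceptor of this class, was too dim to be tested. Its 12 readings lay between 8.37 and 20.1, with group means of 10.5 to 13.4, and the groups overlapped.

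The Gq-coupled HTR2 class held the clearest pattern. HTR2C probe set 33550_at read 321, 368 and 396 with placebo, 281, 379 and 275 with estrogen, 253, 204 and 229.7 with progesterone, and 284, 371 and 296 with both hormones. All 3 progesterone arrays lay under the other 9, of which the lowest was 275, while placebo, estrogen and both hormones overlapped. Of all tested probe sets, 1.51% had their 3 progesterone arrays under the other 9. That share is for the group and direction in which HTR2C lay apart. The larger share for any group and either direction is not given here, so 1.51% does not measure how rare such a separation is. The order of means was placebo (362 ± 38.0), both hormones (317 ± 46.9), estrogen (312 ± 58.7) and progesterone (229 ± 24.3). The step from placebo to both hormones was smaller than the SD of both hormones, and the step from both hormones to estrogen was smaller than either SD.

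The change of HTR2C with progesterone was −0.62 ± 0.18 on the log2 scale, with a 95% interval from −1.01 to −0.23 (limma adjusted p = 0.390). Over the alternatives it stayed between −0.68 and −0.54, with an adjusted p from 0.145 to 0.735. Estrogen gave −0.21 ± 0.18 and both hormones −0.19 ± 0.18. Against progesterone alone, both hormones were 0.42 ± 0.18 higher (adjusted p = 0.585) and estrogen 0.41 ± 0.18 higher (adjusted p = 0.580). These share the progesterone arrays. The interaction, the amount by which both hormones together differ from the sum of their single changes, was 0.63 ± 0.25 (limma adjusted p = 0.962). The limma F test over the 4 groups gave an adjusted p of 0.817, the lowest of the 11 probe sets, and 5.72% of all tested probe sets had an F test p under 0.05. No value for HTR2C passed the adjusted threshold.

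The second HTR2C probe set, 33551_s_at, was too dim to be tested. It read from 5.04 to 44.1, with 4 of 12 arrays under 8.26, the value added to every intensity before the logarithm. Its progesterone readings of 33.4, 32.6 and 5.46 overlapped the placebo readings of 7.10, 29.3 and 44.1. The separation in HTR2C thus rests on 1 probe set. Over the 12 arrays the HTR2C pair had an r of 0.31 (permutation p = 0.327) and a rho of 0.29 (permutation p = 0.367), and r was 0.48 without the 2 arrays farthest from the median.

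HTR2C is also abundant in choroid plexus, the tissue that makes cerebrospinal fluid, and markers of other cells were read beside it. The summed intensity of 6 choroid plexus and ependyma markers ran from 1332 to 1570 with placebo and from 1370 to 1652 with progesterone, so the groups overlapped. Of the 6, 3 were tested, and with progesterone 1 was higher and 2 were lower (median −0.17), none past the threshold. Dim readings on this list were TTR at 38.4 ± 2.37 and 42.0 ± 13.5 in these groups, KL at 2.47 ± 0.83 and 2.15 ± 1.16, and KCNJ13 at 10.8 ± 10.7 and 8.57 ± 7.65. Such dimness does not measure how much of the tissue was present. Among 8 astrocyte markers, SOX9 gave −0.80 ± 0.16 (limma adjusted p = 0.167) and GFAP −0.42 ± 0.16 (adjusted p = 0.531) with progesterone, while 5 of the 8 were higher. The sum of all 8 ran from 3419 to 7121 with placebo and from 6495 to 6718 with progesterone. SLC6A4 gave −0.58 ± 0.26 (adjusted p = 0.585). The sum of 7 serotonin neuron markers, SLC6A4 among them, ran from 1027 to 1335 with placebo and from 949 to 1061 with progesterone, which overlapped. Of the 6 tested, 1 was higher and 5 were lower with progesterone (median −0.23), none past the threshold. The part of choroid plexus, serotonin neurons and astrocytes in the HTR2C reading was not tested.

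HTR2A, the Gq-coupled receptor through which hallucinogens act, had 3 probe sets that behaved differently. Probe set 35471_g_at read 87.6, 112 and 80.4 with placebo, 108, 86.1 and 109 with estrogen, 109, 111 and 114 with progesterone, and 117, 87.8 and 117 with both hormones. The 3 progesterone arrays lay close together, at or near the upper end of the ranges of the other groups, and all groups overlapped. The changes were 0.09, 0.25 and 0.15 with estrogen, progesterone and both hormones, each with an SE of 0.18, and the limma adjusted p with progesterone was 0.790.

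Probe set 35469_at of HTR2A read 43.0, 64.6 and 40.5 with placebo, 4.17, 68.7 and 80.7 with estrogen, 63.0, 61.9 and 39.0 with progesterone, and 49.1, 60.2 and 66.0 with both hormones. The 4.17 was estrogen array 1, one of the arrays of high ribosomal signal, and the other estrogen arrays were the highest of all 12. The change with estrogen was −0.43 ± 0.62 with that array and 0.57 without it (limma adjusted p = 0.998), so 1 library decided its sign. Without that array estrogen and placebo did not overlap. This probe set had a mean of 53.4 over all arrays, just inside the brightness filter, which fell at 53.2. Its changes with progesterone and both hormones were 0.10 and 0.16, with an SE of 0.62.

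The third HTR2A probe set, 35470_at, was too dim to be tested, and 5 of its 12 arrays were under 8.26. It read 34.9, 6.30 and 36.2 with placebo, 17.8, 7.70 and 7.89 with estrogen, 6.27, 6.56 and 9.23 with progesterone, and 32.7, 18 and 25.1 with both hormones. The arrays of both hormones lay above all 3 arrays of either single hormone, and the placebo arrays spanned nearly the whole range, from 6.30 to 36.2. Between the 2 tested HTR2A probe sets r was 0.16 (permutation p = 0.704) and rho 0.24 (permutation p = 0.455), and r was 0.47 without the 2 arrays farthest from the median.

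HTR3A, the subunit every serotonin-gated channel of this family needs, was lower on every estrogen array than on any placebo array, though not past the threshold. Probe set 740_at read 95.9, 66.9 and 97.5 with placebo, 53.3, 48.5 and 49.7 with estrogen, 68.9, 104 and 48.9 with progesterone, and 24.2, 104 and 45.1 with both hormones. The estrogen arrays lay together under the placebo arrays, and the other groups overlapped placebo. The order of means was placebo (86.7 ± 17.3), progesterone (74 ± 27.9), both hormones (57.9 ± 41.6) and estrogen (50.5 ± 2.51), in which each step was smaller than the larger SD of its neighbours. The change with estrogen was −0.70 ± 0.41, with a 95% interval from −1.59 to 0.19 (limma adjusted p = 0.99995).

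With both hormones HTR3A gave −0.77 ± 0.41 (limma adjusted p = 0.9996), but the arrays of that group spanned the whole range of the 12. That value was −0.29 without array 1, which read 24.2 and has high ribosomal signal, and −1.26 without array 2, which read 104 (adjusted p = 0.822). The main effect of estrogen, the mean over the groups with it less the mean over those without, was −0.60 ± 0.29 (limma adjusted p = 0.855); without the 2 arrays of high ribosomal signal it was −0.35.

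The second HTR3A probe set, 741_g_at, had a mean of 43.5 over all arrays, under the filter, and was not tested. It read 60.5, 61.6 and 24.0 with placebo and 56.1, 9.97 and 36.4 with estrogen, which overlapped. With progesterone it read 39.3, 63.5 and 72.2, and with both hormones 12.6, 71.9 and 14.3, again with array 2 high. Over the 12 arrays the HTR3A pair had the highest correlation of the 10 pairs of probe sets of 1 gene. Its r was 0.62 (permutation p = 0.0311, adjusted over the 10 pairs 0.311), its rho 0.53 (permutation p = 0.0795, adjusted 0.534), and r was 0.36 without the 2 arrays farthest from the median. No pair passed after adjustment.

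**Figure D2:**
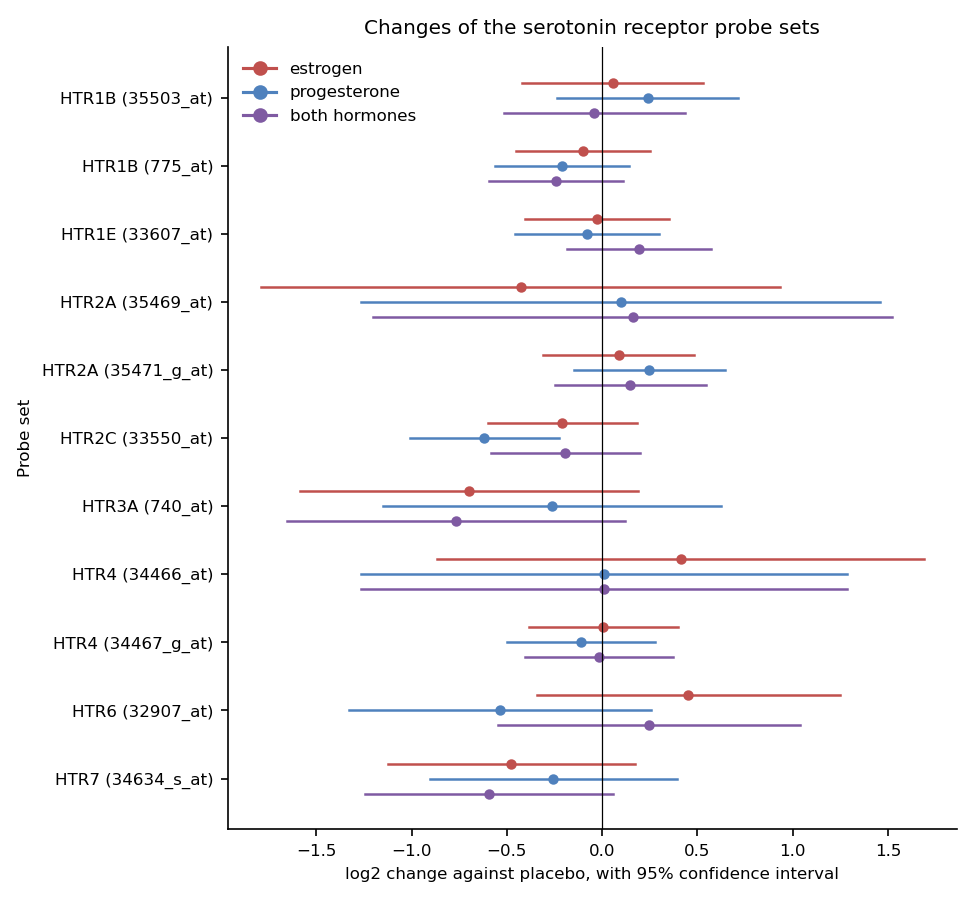
Log2 change of each tested serotonin receptor probe set against placebo with its 95% confidence interval from limma, for estrogen, progesterone and both hormones (n = 3 arrays per group). The interval of HTR2C with progesterone, −1.01 to −0.23, is the only one of the 33 that does not reach 0, before any adjustment, and the intervals of HTR2A 35469_at and HTR4 34466_at are the widest.

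The Gs-coupled class held HTR4, HTR6 and HTR7. HTR6, a receptor found almost only in the nervous system, read 166, 251 and 257 with placebo, 557, 229 and 211 with estrogen, 160.4, 117 and 172 with progesterone, and 389, 195 and 239.9 with both hormones. The 557 and 389 were the arrays of high ribosomal signal, and they were the highest of the 12. The progesterone arrays lay under all arrays of estrogen and of both hormones, and overlapped placebo. The order of means was estrogen (333 ± 195), both hormones (275 ± 102), placebo (225 ± 51.1) and progesterone (149.8 ± 29.1), and only the step from placebo to progesterone was larger than both SDs.

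HTR6 with estrogen exceeded progesterone by 0.99 ± 0.36 on the log2 scale, with a 95% interval from 0.20 to 1.78 (limma adjusted p = 0.518). Both hormones exceeded progesterone by 0.78 ± 0.36 (adjusted p = 0.649). These values against progesterone include the arrays of high ribosomal signal, which read 557 and 389, and are given only with them. Against placebo the changes were 0.45, −0.54 and 0.25 with estrogen, progesterone and both hormones, each with an SE of 0.36, and the limma adjusted p with progesterone was 0.749. Without both arrays of high ribosomal signal the change was 0.01 with estrogen and −0.03 with both hormones. Neither of them is in progesterone or placebo, but all groups share 1 estimate of the spread. Progesterone gave −0.54 without these arrays (limma adjusted p = 0.369). The main effect of estrogen fell from 0.62 (limma adjusted p = 0.809) to 0.26 (adjusted p = 0.688) without them.

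HTR7, a Gs-coupled receptor known for its part in circadian rhythm, had its highest reading in a single placebo monkey. Probe set 34634_s_at read 287, 621 and 261 with placebo, 249.5, 214 and 324 with estrogen, 361, 247 and 290.0 with progesterone, and 256, 225 and 232 with both hormones. The arrays of both hormones lay under all placebo arrays, the nearest pair being 256 and 261. The change with both hormones was −0.59 ± 0.30 (limma adjusted p = 0.9996), with a 95% interval from −1.24 to 0.06. Estrogen gave −0.48 and progesterone gave −0.26.

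Without placebo array 2, which read 621, those HTR7 changes were −0.09 for estrogen, 0.13 for progesterone and −0.21 for both hormones. That 1 library decided the sign for progesterone and most of the size for the others. The second HTR7 probe set, 34635_at, was too dim to be tested: it read from 7.10 to 20.4, with 4 of 12 arrays under 8.26, and all groups overlapped. Placebo array 2 was high on that probe set too, at 16.4, against 7.10 and 7.36 for the other placebo arrays. Over the 12 arrays r was 0.47 (permutation p = 0.108) and rho 0.37 (permutation p = 0.238), and r was −0.06 without the 2 arrays farthest from the median.

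HTR4, the Gs-coupled receptor also targeted by drugs that speed gut movement, had 2 bright probe sets with very different spread. Probe set 34467_g_at read 142, 141 and 127 with placebo, 181, 119.8 and 120.4 with estrogen, 115, 119 and 142 with progesterone, and 145, 148 and 123 with both hormones. All groups overlapped, and the changes were 0.0072, −0.11 and −0.02, each with an SE of 0.18. The 95% intervals lay within −0.50 and 0.40.

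Probe set 34466_at of HTR4 read 129, 111 and 47.8 with placebo, 174, 119 and 85.1 with estrogen, 48.3, 126 and 115 with progesterone, and 266, 40.1 and 62.6 with both hormones. The highest reading, 266, and the second highest, 174, came from the arrays of high ribosomal signal, and all groups overlapped. The changes were 0.41, 0.0090 and 0.0101, each with an SE of 0.58. The change with both hormones was −0.72 without array 1 of that group, and the change with estrogen was 0.20 without both arrays of high ribosomal signal. The third probe set, 34468_at, was too dim to be tested and read 13.2 to 30.7, again highest on these 2 arrays, at 30.7 and 23.8. Between the 2 bright probe sets r was 0.44 (permutation p = 0.147) and rho 0.39 (permutation p = 0.209), with r of 0.66 without the 2 arrays farthest from the median.

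**Figure D3:**
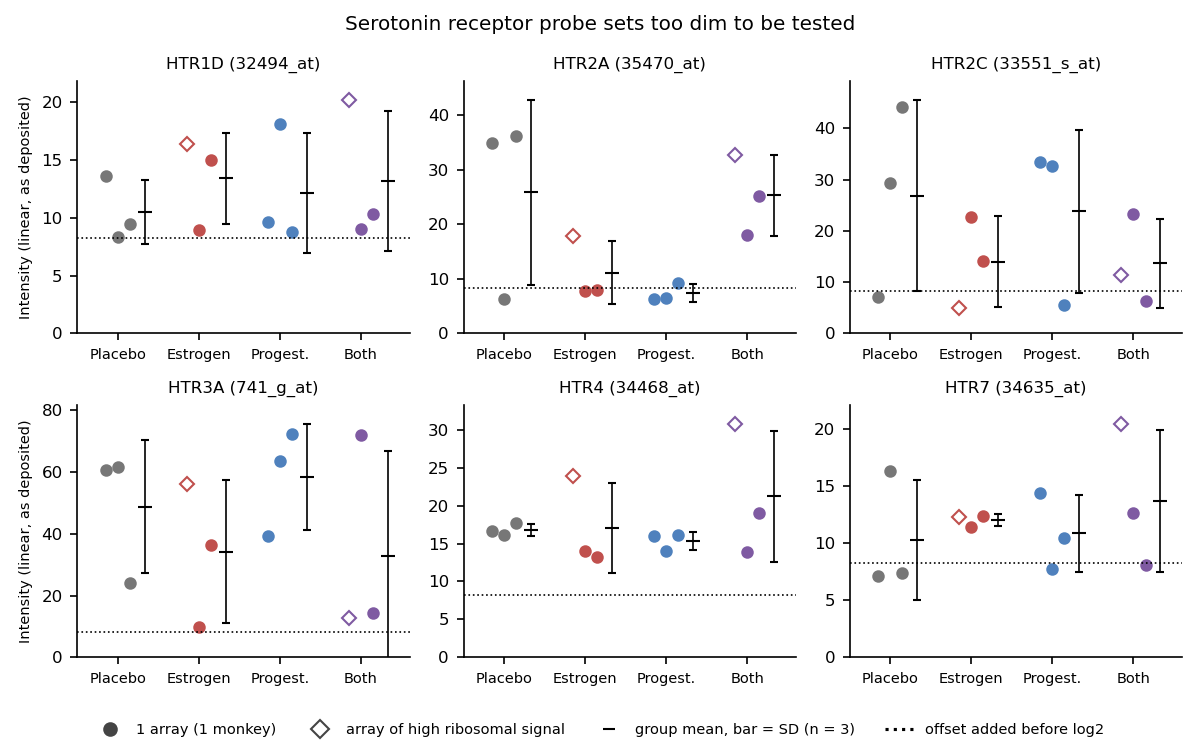
Deposited intensity (linear scale) of the 6 serotonin receptor probe sets too dim to be tested, by group (Progest. is progesterone, Both is estrogen with progesterone). Points are monkeys, open diamonds the arrays of high ribosomal signal, bars the mean and SD of 3 arrays (drawn to 0 where the SD is larger than the mean), and the dotted line the 8.26 added before the logarithm. HTR2A, HTR2C and HTR7 have points under that line, and the HTR4 readings are highest on the open diamonds.

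The comparisons between hormone groups called 0 of the 11 probe sets as well, where limma called 0%, 0.0133% and 0% of all tested probe sets for both hormones against estrogen, both against progesterone and estrogen against progesterone. At an unadjusted p under 0.05 there were 0, 1 (HTR2C) and 2 (HTR2C and HTR6), against 2.79%, 7.66% and 8.36% of all. The main effect of estrogen had 1 (HTR6), that of progesterone 1 (HTR2C) and the interaction 1 (HTR2C), against 5.83%, 5.83% and 4.99%, and again 0 after adjustment.

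Counted by arrays that did not overlap, 1 of the 11 separated from placebo with estrogen (HTR3A 740_at, lower), beside 6.0% of all tested probe sets. With progesterone it was 1 (HTR2C 33550_at, lower), beside 16.8%, and with both hormones 2 (HTR1E, higher, and HTR7 34634_s_at, lower), beside 8.68%. Both hormones against progesterone separated 4 (HTR2C, HTR6 and HTR1E higher, HTR1B 35503_at lower), beside 16.0%, and estrogen against progesterone 2 (HTR2C and HTR6, higher), beside 13.7%. Both hormones against estrogen separated 0, beside 6.38%. These comparisons share arrays in pairs. The counts use deposited intensities, and those between hormone groups were not repeated on normalized values. For HTR1E in both hormones against progesterone, the nearest readings were 102.3, on both-hormones array 1, and 101.5. An array of high ribosomal signal gave the highest of the 12 readings for 6 of the 11 probe sets (54.5%), against 29.6% of all tested probe sets, and the lowest for 2 (18.2%), against 23.6%. This count was chosen after the values were seen, and the part of array quality in these readings was not tested beyond the values given without those arrays.

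The spread between arrays of a group, each from 1 monkey, differed widely among the receptors. The residual SD on the log2 scale was 0.14 for HTR1B 775_at, 0.17 for HTR1E, 0.18 for HTR4 34467_g_at, 0.18 for HTR2C and 0.19 for HTR2A 35471_g_at. It was 0.26 for HTR1B 35503_at, 0.40 for HTR7, 0.50 for HTR6, 0.57 for HTR3A, 0.84 for HTR4 34466_at and 0.90 for HTR2A 35469_at. These values include the arrays of high ribosomal signal. On them HTR2A 35469_at read as low as 4.17, HTR3A 740_at as low as 24.2, HTR4 34466_at as high as 266, and HTR6 557 and 389. The part of those arrays in the spread was not tested. The median of all tested probe sets was 0.30, and 6 of the 11 lay under it. The probe sets of HTR4 and of HTR2A sat at both ends of this scale, and the SE of a change against placebo was 0.18 for the steady one of each pair, against 0.58 and 0.62 for the other.

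**Figure D4:**
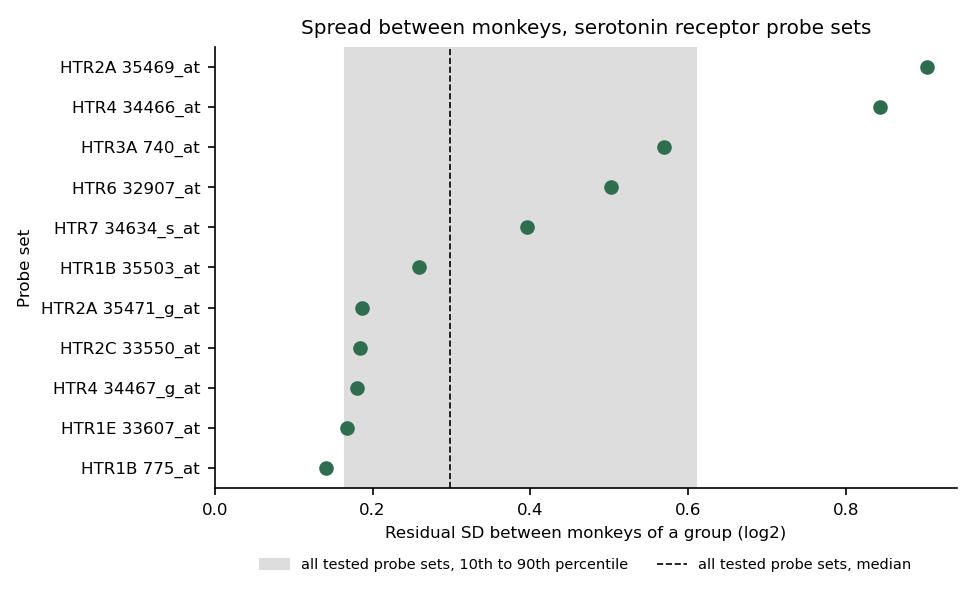
Residual SD between monkeys of a group (1 array each, arrays of high ribosomal signal included), on the log2 scale, for each tested serotonin receptor probe set. The grey band runs from the 10th to the 90th percentile of all tested probe sets (0.17 to 0.61) and the dashed line is their median (0.30). HTR2A 35469_at and HTR4 34466_at lie above the band, and HTR1B 775_at lies under it.

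The partners through which the receptors signal were read from 6 lists of genes. In none of the lists did a gene pass the adjusted limma threshold in any comparison, in either direction. For the Gi/o partners of HTR1 receptors, 15 of 16 genes had a probe set and 11 were tested. Their median changes were 0.11, 0.16 and −0.05 with estrogen, progesterone and both hormones. In that order 0, 1 and 2 genes, all lower, had an unadjusted limma p under 0.05. The shares of all tested probe sets were 3.08%, 8.28% and 3.38%. KCNJ6, the GIRK2 potassium channel subunit opened by HTR1 autoreceptors, read 235 ± 32.9 with placebo and 144 ± 29.7 with progesterone, a change of −0.67 ± 0.24 (limma adjusted p = 0.526). RGS19 and RGS10, which switch Gi proteins off, gave −0.55 ± 0.17 and −0.62 ± 0.22 with both hormones (limma adjusted p = 0.9996 for each), while RGS4 gave −0.69 ± 0.39 with estrogen.

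For the Gq partners of HTR2 receptors, 18 of 19 genes had a probe set and 12 were tested, with medians of 0.12, −0.03 and 0.06. At an unadjusted p under 0.05 there were 0 with estrogen, 1 lower and 1 higher with progesterone, and 1 higher with both hormones. The shares of all tested probe sets were again 3.08%, 8.28% and 3.38%. ADARB1, the ADAR2 enzyme that edits HTR2C RNA, had the smallest F test p of any gene in these 6 lists (limma adjusted p = 0.504). It read 237, 245 and 277 with placebo and 194, 139 and 187 with progesterone, so these groups did not overlap. They did not overlap for 16.8% of all tested probe sets either, and ADARB1 was named for its small p. Its change with progesterone was −0.52 ± 0.16 (adjusted p = 0.412), beside 0.23 with estrogen and −0.01 with both hormones. DLG4, the synaptic scaffold PSD-95, gave 0.72, 1.57 and 1.34 with an SE of 0.61 (adjusted p = 0.534 for progesterone). PLCB2, a phospholipase C, gave −0.37, 0.24 and 0.45, and PRKCA, a protein kinase C, gave −0.55, −0.55 and −0.56 with an SE of 0.30.

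For the Gs partners of HTR4, HTR6 and HTR7, 19 of 20 genes had a probe set and 17 were tested, with medians of 0.04, −0.07 and 0.04. At an unadjusted p under 0.05 there were 2, both lower with progesterone, beside 8.28% of all tested probe sets. Adenylyl cyclase ADCY9 read 215 ± 130 with placebo and 68.8 ± 24.4 with progesterone, a change of −1.43 ± 0.41 (limma adjusted p = 0.368). ADCY8, another adenylyl cyclase, gave −0.66 ± 0.25 with progesterone (adjusted p = 0.531). PDE4B and PDE4D, which break down cyclic AMP, gave −0.26 and −0.40 there. Of the 16 genes in the trafficking and desensitization list, 11 had a probe set and 10 were tested, with medians of 0.02, −0.07 and 0.09 and 0 genes at an unadjusted p under 0.05. The receptor kinase GRK5 and the tyrosine kinase FYN gave 0.33 and 0.32 with progesterone, the scaffold CAV1 gave −0.52 with both hormones, and GRK3 gave −0.46 with progesterone.

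The genes that make, move and break down serotonin set the amount of ligand. Of 18 such genes, 15 had a probe set and 12 were tested, with medians of −0.02, 0.02 and −0.06. At an unadjusted p under 0.05 there were 1 higher with estrogen and 1 lower with progesterone, beside 3.08% and 8.28% of all tested probe sets. MAOA, a monoamine oxidase, read 326 ± 99.2 with placebo and 587 ± 200 with estrogen, a change of 0.80 ± 0.26 (limma adjusted p = 0.99995). SLC6A4 read 435 ± 39.9, 376 ± 13.6, 282 ± 21.6 and 390 ± 149 with placebo, estrogen, progesterone and both hormones. The vesicle transporter SLC18A2 gave −0.45 and the aldehyde dehydrogenase ALDH2 0.02 with progesterone. Of 10 identity genes of serotonin neurons, 8 had a probe set and 7 were tested, with medians of −0.05, −0.45 and −0.06. At an unadjusted p under 0.05 there was 1, GATA3, lower with progesterone, beside 8.28% of all tested probe sets. Among these transcription factors NKX2-2 gave 0.41, EN2 −0.54, GATA3 −0.62 and LMX1B −1.01 with progesterone (limma adjusted p = 0.641, 0.665, 0.503 and 0.641).

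HTR2C 33550_at had the smallest F test p of the tested receptor probe sets. The tested probe sets of other genes whose log2 profile lay closest to it over the 12 arrays were those of UBE2N, ARHGAP1, PRKDC, ARFGEF2 and GFAP. Their mean absolute differences from the HTR2C profile, each centred on its own mean, were 0.0999, 0.106, 0.107, 0.111 and 0.112 on the log2 scale. The median over 6664 candidates was 0.331. UBE2N read 254, 232, 185 and 243 on average with placebo, estrogen, progesterone and both hormones, the order of group means seen for HTR2C. All these profiles come from the same 12 arrays and were picked for their likeness to HTR2C over them. A like order of group means therefore follows from the choice.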

How the data were processed

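The authors deposited linear intensities, 1 for each probe set, from 12 human arrays hybridized with macaque RNA. From the values, each array was scaled to a trimmed mean near 200.1. How probes were summarised is not given in the sources used here. Detection calls were not used. Gene symbols were taken as the platform's probe table gives them, and all 9 receptor symbols also occur in macaque RefSeq.

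Intensities were transformed to log2(intensity + 8.26), the offset being the pooled 10th percentile, which understates changes of dim probe sets. Arrays were quantile normalized without the 67 control probe sets, and the lowest 40% by mean were left out (5023, leaving 7535). Group means over all 12 arrays were fitted with limma 3.58.1 in R 4.3.3 (lmFit, eBayes), with 2-sided tests, Benjamini-Hochberg adjustment and a threshold of 0.05. The script was tested on simulated data with changes larger than any receptor change given here. That test does not show whether changes of the size seen for the receptors would be called. The precision is limited by 3 arrays per group. The labels state no pairing of the monkeys. Between estrogen and both hormones, all 3 same-numbered pairs had a correlation of deviations over 0.1 (0.131 to 0.398). The highest was that of the arrays of high ribosomal signal. Differently numbered pairs of these groups also passed 0.1: estrogen array 3 with both-hormones array 2 gave 0.195, and estrogen array 2 with both-hormones array 3 gave 0.11. The others were negative. Of the 15 same-numbered pairs of other groups, 1 passed 0.1. A pairing by number would rest on the data alone, and these values do not settle it. The reported fit used no pairing, and the replicate block entered as an alternative.

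Every receptor probe set is shown. From each partner list, up to 4 genes with the smallest F test p are named, and the 5 profiles closest to HTR2C. Each list gene enters with its brightest probe set. The members and lists were chosen with earlier results of these data known. Probe and gene sequences are not used here. Alternatives were the normalization, offset, filter, variance model, array weights, replicate block, groups in the fit and arrays left out.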

Additional observations from a re-analysis of the deposited data

How the results depend on the processing

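None of the 11 tested receptor probe sets passed the adjusted limma threshold in any of the 10 comparisons under the 24 alternative settings (227 counts, all 0), of which fitting only the groups compared covered the 6 pairwise comparisons. The lowest adjusted p over them was 0.145, for HTR2C with progesterone under array weights. With the replicate block, limma also called 0, and HTR2C with progesterone gave −0.62 (adjusted p = 0.418). The block changed no call among the receptors. A fit of only estrogen and both hormones with the replicate block, chosen after seeing the data, called 0 of 7535 probe sets and 0 receptors. At an unadjusted p under 0.05 it had 345, against 210 in the reported fit. Of 1171 alternative values of single probe sets, 1150 lay within 1 SE of the reported value, 21 moved further and 63 changed sign, all without passing the threshold. Without both arrays of high ribosomal signal 3 probe sets did not overlap placebo with estrogen (HTR3A 740_at and HTR4 34467_g_at lower, HTR2A 35469_at higher), beside 20.5% of all tested probe sets with 2 estrogen arrays left. With quantile-normalized values, 1 (HTR7 34634_s_at) did not overlap placebo with both hormones, beside 8.97%. The count over all probe sets called with progesterone was 3; over the alternatives it ran from 0, as with the replicate block, to 18 with array weights and to 12 once estrogen array 1 and both-hormones array 1 were left out. With the dimmer 60% left out, 4 receptor probe sets were tested. Signal over background is unknown without detection calls.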
